A study of Homo sapiens with 26 samples.

Results

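The HOX genes are the 39 protein-coding genes of GENCODE 44, lifted to GRCh37, whose symbols are HOXA, HOXB, HOXC or HOXD followed by a number, among 20163 protein-coding genes in all. They lie in 4 clusters. HOXA spans 107.1 kb of chromosome 7 (27132612 to 27239710, hg19) with 11 genes, HOXB 200.2 kb of chromosome 17 (46605888 to 46806112) with 10, HOXC 117.2 kb of chromosome 12 (54332615 to 54449814) with 9 and HOXD 98.2 kb of chromosome 2 (176957449 to 177055635) with 9. Each cluster with 50 kb on either side is called a HOX window here, and 95 of the 399567 peaks in 5 lists touched a window. The study mapped HALO-tagged proteins by chromatin immunoprecipitation and sequencing (ChIP-seq) with an antibody to the tag, in the established human foreskin fibroblast line BJ. The groups were FOXA1, a forkhead pioneer factor, its variants named FOXA1dbd, FOXA1nhaa and FOXA1rraa, and HNF4A, a nuclear receptor. Each protein had been expressed ectopically for 48 hours. The labels list 2 ChIP libraries for each construct, but 1 peak list for each, so there was no replicate error, no difference between constructs was tested, and the read depth is unknown. The cells are 1 line, the promoter that drove the proteins is not given in the sources used here, and peaks of the input libraries or of HALO-tagged histone H2B were not analysed here.

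HOX proteins are homeodomain transcription factors that set positional identity along the body axis. Within a cluster the genes are ordered from those active towards the head (low numbers) to those active towards the tail and the ends of the limbs (high numbers), and all HOX genes of a cluster are transcribed in the same direction. Adult fibroblasts keep a HOX expression pattern that reflects the body site they came from, and Polycomb proteins keep the other HOX genes silent. Expression and chromatin marks were not measured in these lists.

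The sequences at the centres of 7 peaks are shown because the peaks of FOXA1 and HNF4A in these clusters differed in base composition and in the forkhead core. The core was searched as TGTTTAC or TATTTAC on both strands, without mismatch, and capitals mark each match. Every stretch is the central 200 bp on the plus strand of GRCh37 (hg19). The first is the FOXA1 peak with the highest score in the HOXA window, in introns of HOXA3 and of the antisense RNA HOXA-AS2 (chr7:27161003-27161202), and the second is another peak in the same introns (chr7:27152018-27152217). The third lies in an exon of HOXA11-AS (chr7:27226607-27226806) and the fourth in introns of HOXA6 and HOXA3 (chr7:27189438-27189637). The HOXA peak with the highest score was picked by score and held a core. The other HOXA peaks shown were picked because they held a core, which 9 of the 18 FOXA1 peaks in HOXA had. The strongest FOXA1 peaks of the HOXC and HOXD windows were picked by score and had none. They lay in an intron of the long noncoding RNA FLJ12825 beyond HOXC4 (chr12:54462081-54462280) and beyond HOXD1 (chr2:177057899-177058098). Because of this choice, the stretches cannot show whether cores were more frequent in HOXA than in HOXC or HOXD. The last stretch is from an HNF4A peak in the coding exon at the start of HOXC5 (chr12:54427135-54427334), the highest-scoring HNF4A peak at a HOX start whose centre held no untranslated region, a choice made after the values were seen.
HOXA3 intron, highest FOXA1 score: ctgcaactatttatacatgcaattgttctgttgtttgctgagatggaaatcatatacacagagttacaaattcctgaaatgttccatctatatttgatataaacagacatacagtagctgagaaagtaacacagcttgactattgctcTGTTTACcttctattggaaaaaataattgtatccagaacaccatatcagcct
HOXA3 intron, FOXA1: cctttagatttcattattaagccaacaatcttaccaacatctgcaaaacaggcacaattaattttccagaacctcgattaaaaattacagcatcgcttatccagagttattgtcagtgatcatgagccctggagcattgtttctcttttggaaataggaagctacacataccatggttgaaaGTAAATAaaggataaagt
HOXA11-AS exon, FOXA1: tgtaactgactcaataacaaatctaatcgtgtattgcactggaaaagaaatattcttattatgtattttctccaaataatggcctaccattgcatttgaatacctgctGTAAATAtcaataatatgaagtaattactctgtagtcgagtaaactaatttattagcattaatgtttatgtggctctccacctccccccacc
HOXA6 intron, FOXA1: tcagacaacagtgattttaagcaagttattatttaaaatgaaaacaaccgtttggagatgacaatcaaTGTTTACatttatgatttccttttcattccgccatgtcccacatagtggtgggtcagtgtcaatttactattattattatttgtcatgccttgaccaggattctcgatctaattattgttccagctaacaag
Beyond HOXC4, FOXA1: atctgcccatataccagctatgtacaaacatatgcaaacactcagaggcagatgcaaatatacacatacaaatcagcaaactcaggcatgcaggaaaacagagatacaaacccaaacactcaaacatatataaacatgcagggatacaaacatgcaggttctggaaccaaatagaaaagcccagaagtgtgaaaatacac
Beyond HOXD1, FOXA1: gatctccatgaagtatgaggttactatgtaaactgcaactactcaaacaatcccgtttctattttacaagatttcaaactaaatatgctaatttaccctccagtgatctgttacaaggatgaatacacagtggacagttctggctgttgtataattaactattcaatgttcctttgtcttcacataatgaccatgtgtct
HOXC5 exon, HNF4A: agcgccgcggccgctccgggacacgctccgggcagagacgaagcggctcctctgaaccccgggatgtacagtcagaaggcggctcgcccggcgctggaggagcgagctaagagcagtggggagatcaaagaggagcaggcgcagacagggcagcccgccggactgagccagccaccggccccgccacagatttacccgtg
The 4 HOXA stretches held 33.0% to 35.5% G+C and the HOXC5 stretch 69.5%.

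Peaks of every list were denser inside HOXA than over the genome, and none of the other clusters was as dense in any list. The FOXA1 list placed 18 peaks inside HOXA, 2 inside HOXC, 1 inside HOXB and 0 inside HOXD. Inside HOXA this was 168 peaks per Mb, 3.09 times the 54.4 per Mb of the genome's known bases, while HOXB had 4.99 per Mb and HOXC 17.1. The HNF4A list also placed 18 peaks inside HOXA, with 7 inside HOXC, 3 inside HOXB and 2 inside HOXD. Inside HOXA its density was 12.5 times the genome's 13.4 per Mb, and inside HOXC 4.46 times. The FOXA1 variants also had most of their peaks inside clusters in HOXA. FOXA1dbd had 7 peaks inside HOXA and 1 inside HOXC, FOXA1nhaa 8 inside HOXA and 1 inside HOXB, and FOXA1rraa 7 inside HOXA and 1 inside HOXC. HOXA density was 6.48, 2.02 and 2.62 times the genome's for FOXA1dbd, FOXA1nhaa and FOXA1rraa. Over the 4 windows together, flanks included, density was 2.67 times the genome's for HNF4A, 0.557 times for FOXA1 and 1.07, 0.411 and 0.435 times for FOXA1dbd, FOXA1nhaa and FOXA1rraa. For scale, the median of all 100 kb tiles of the genome was 3 FOXA1 peaks and 0 HNF4A peaks, the 95th percentile was 18 and 6, and the tile with the most held 55 and 20. No peak of any FOXA1 construct lay inside HOXD, but 29.4% of all tiles held no FOXA1 peak either. G+C content was alike in the clusters, at 51.8% in HOXA, 49.3% in HOXB, 52.6% in HOXC and 51.0% in HOXD.

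**Figure D1:**
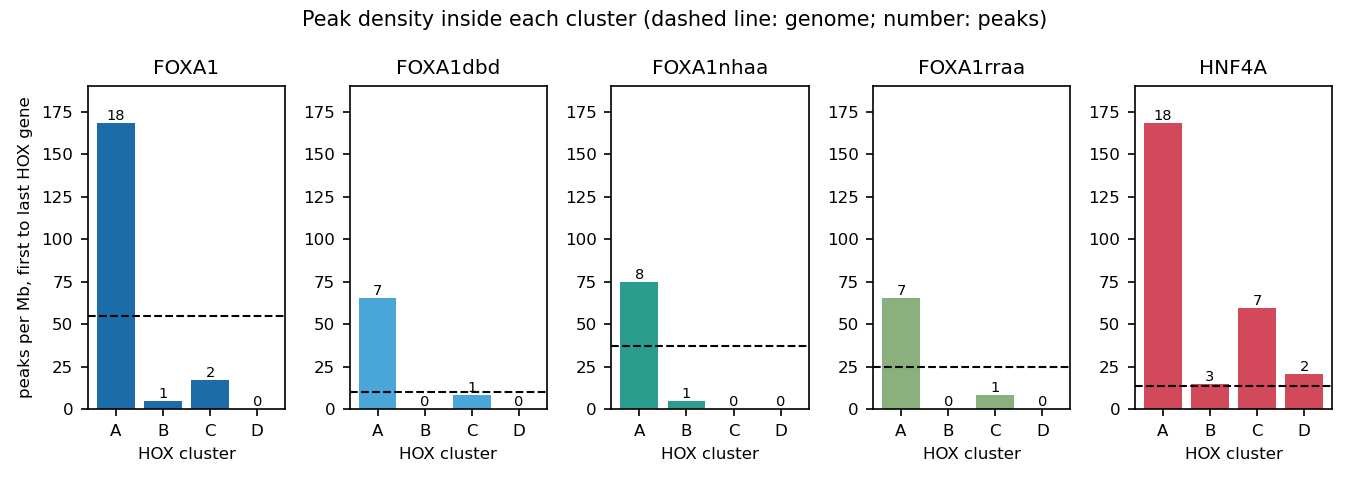
Peaks per Mb between the first and the last gene of each HOX cluster (bars, with the number of peaks above) for the 5 lists, with the density over the genome as a dashed line. In each panel HOXA stands above the dashed line, and the 4 FOXA1 constructs have 0 peaks inside HOXD.

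With the flanks, the windows held 28 FOXA1, 10 FOXA1dbd, 14 FOXA1nhaa, 10 FOXA1rraa and 33 HNF4A peaks. The flanks of HOXA held 0 FOXA1 peaks and those of HOXC 6. The HOXB window, although the longest, had 1 FOXA1 peak, 1 FOXA1nhaa peak, 3 HNF4A peaks and none of FOXA1dbd or FOXA1rraa. The FOXA1rraa list shares rows with other lists. Of its 10 window peaks, 4 had the coordinates and name of FOXA1 rows and 6 those of FOXA1nhaa rows. None of the 10 is thus independent of those lists. Without the FOXA1 rows 6 are left. The names of the 14 FOXA1nhaa window peaks begin with FOXA1_3 (11) or FOXA1_5 (3), and each FOXA1_5 row is also a FOXA1rraa row. Which list the rows shared by FOXA1nhaa and FOXA1rraa came from is not given in the sources used here. In the FOXA1 list a single peak in HOXA3 was given as rows of 18 bp and 634 bp with the same score, and joining them leaves 27. The deposited numbers in the FOXA1 peak names skip 4 of the 31 values spanned in the windows and 62390 of 211576 (29.5%) over the genome, so the list is not every peak that was numbered.

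**Figure D2:**
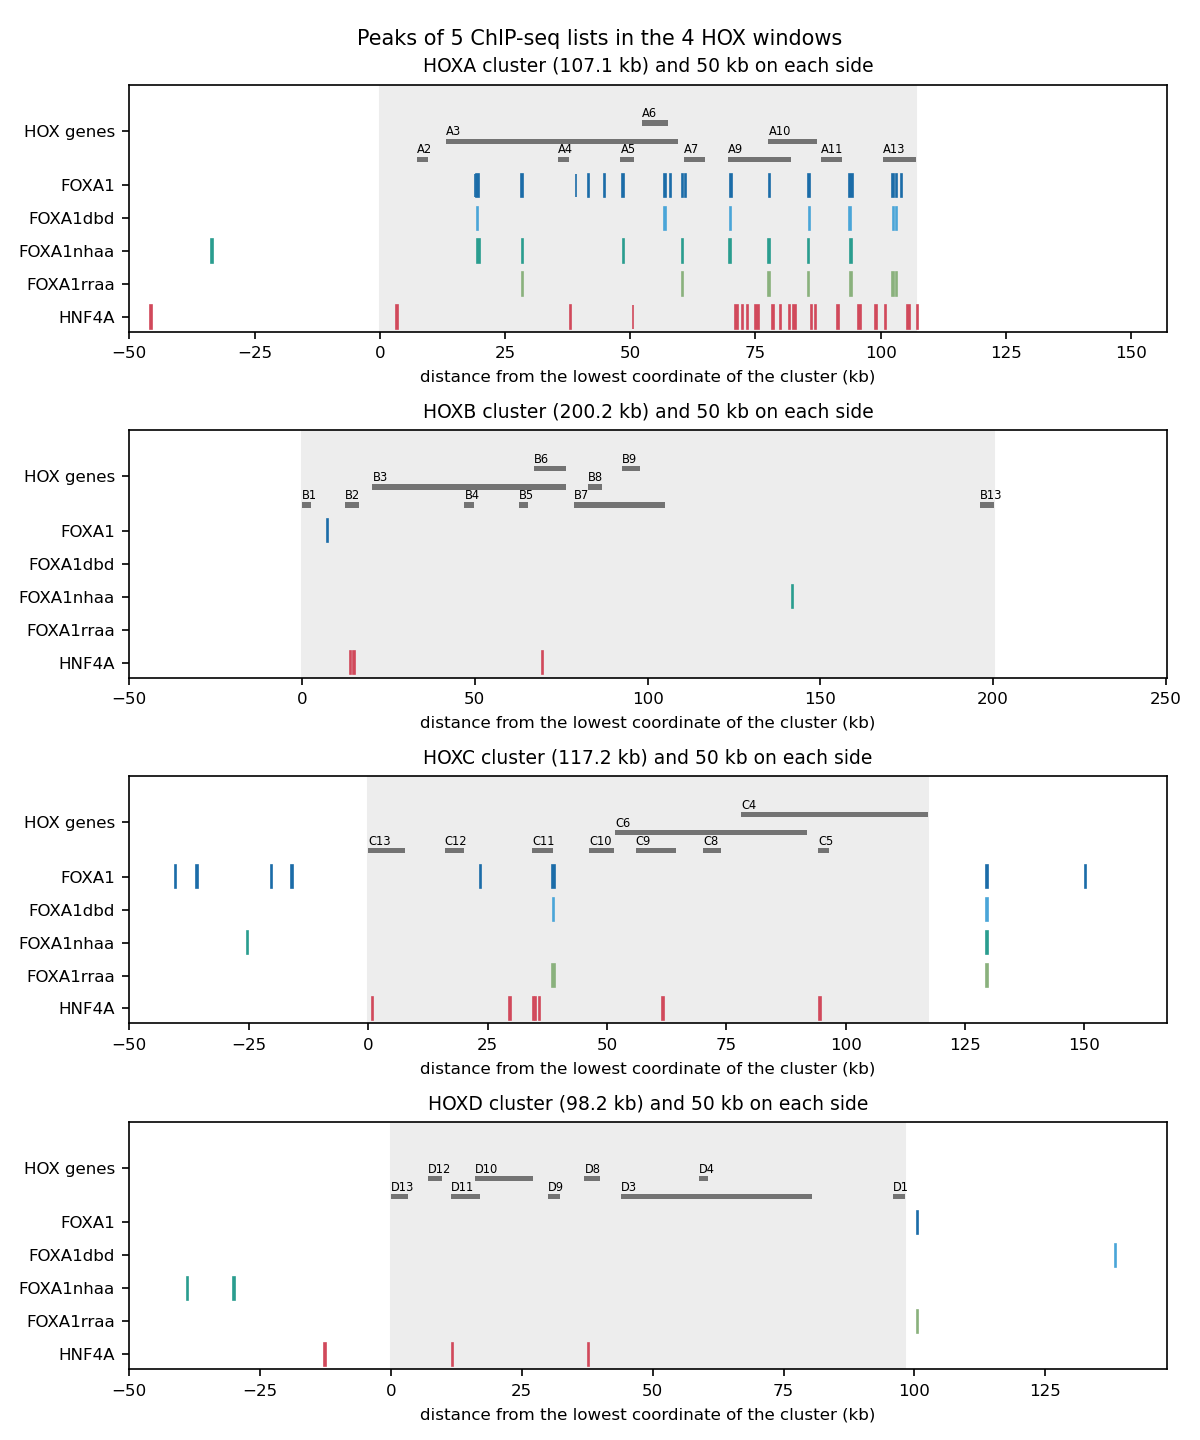
Map of the 4 HOX windows, with the HOX genes shown as grey bars and each peak as a coloured block in the row of its list, against the distance in kb from the lowest coordinate of each cluster. Blocks crowd the shaded HOXA cluster, where no red HNF4A block shares a base with a FOXA1 block.

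Within HOXA the FOXA1 and HNF4A peaks interleaved without touching. None of the 28 FOXA1 peaks in the windows shared a base with an HNF4A peak (0%, 95% Wilson interval 0 to 12.1), against 1.68% of all FOXA1 peaks, so the windows are too small to show a difference from the genome. Seen from HNF4A, 0 of 33 peaks were overlapped (0 to 10.4%), against 6.76% in the whole list. The intervals cover counting error over peaks only. From the centre of a HOXA FOXA1 peak the nearest HNF4A centre was 611 bp away at the least, in HOXA10, and 16170 bp at the most, in HOXA3, with a median of 2969 bp. Merging the rows of all lists gave 39 sites in the HOXA window, of which 19 came from FOXA1 constructs and 20 from HNF4A, and 0 from both.

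The HNF4A peaks lay mostly over the HOXA genes of high number. In the 37.7 kb from HOXA9 to HOXA13 there were 15 (398 per Mb), and in the other 69.4 kb of the cluster there were 3 (43.2 per Mb). FOXA1 peaks were spread more evenly, with 7 (186 per Mb) over HOXA9 to HOXA13 and 11 (158 per Mb) over the rest. FOXA1nhaa had 4 in each part, and FOXA1dbd had 5 and 2. The point of division was chosen after the map had been seen.

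At transcription starts of single HOX genes, the full lists placed FOXA1 at 4 genes and HNF4A at 14, but the top 50% of each list at 4 and 5. A FOXA1 peak centre lay within 1000 bp of an annotated start of 4 HOX genes, which is 10.3% of the 39 (95% Wilson interval 4.06 to 23.6), against 24.4% of all protein-coding genes. They were HOXA3, HOXA6, HOXA9 and HOXA13. The counts were 2 for FOXA1dbd (5.13%, genome 7.41%), 2 for FOXA1nhaa (5.13%, genome 19.2%) and 3 for FOXA1rraa (7.69%, genome 14.3%), or 2 without the rows copied from FOXA1, and every gene was in HOXA. HNF4A was at the start of 14 HOX genes (35.9%, 22.7 to 51.6), against 47.3% of all genes, with 7 in HOXA, 2 in HOXB, 3 in HOXC and 2 in HOXD. The FOXA1 count was 9 within 2500 bp and 2 with a single start per gene. Neighbouring HOX genes can share a peak, so the 39 genes are not independent. No FOXA1 construct and no HNF4A peak was at a start of 23 of the HOX genes. Shares over all genes are not given for this count, the top 50%, 2500 bp or a single start. Those counts alone therefore do not set HOX genes apart from other genes. Counting peaks in a gene or within 5000 bp of it, 14 HOX genes had a FOXA1 peak (35.9%, genome 62.1%) and 24 an HNF4A peak (61.5%, genome 65.2%), with medians of 0 and 1 peaks per HOX gene against 1 and 1 per protein-coding gene. FOXA1dbd had 8 such HOX genes (genome 35.4%), FOXA1nhaa 7 (genome 56%) and FOXA1rraa 9 (genome 49.6%). Longer genes offer more room for a peak, and these counts were not adjusted for gene length.

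**Figure D3:**
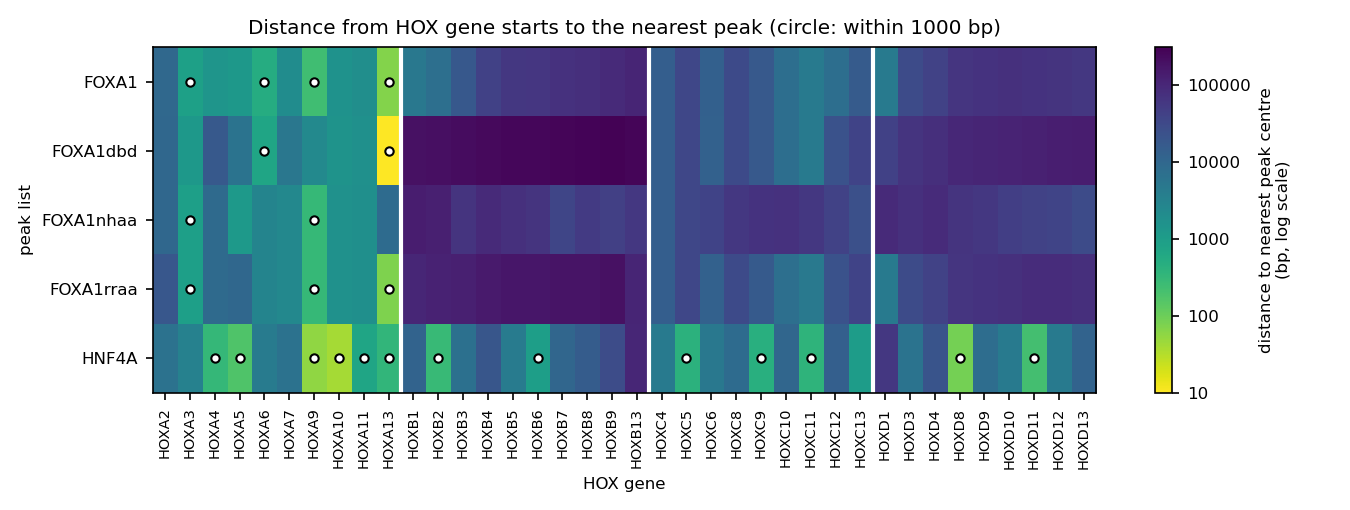
Distance in bp (colour, log scale) from any annotated start of each HOX gene shown to the nearest peak centre of each list, with a circle where it is within 1000 bp. Circles of the FOXA1 constructs occur in HOXA only, at HOXA3, HOXA6, HOXA9 and HOXA13, while HNF4A has circles in all 4 clusters.

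The authors' score is given with each peak. It rises as the q-value of the peak falls, and it can be ranked only within a list. Among HOXA genes of low number, HOXA2, which patterns the second pharyngeal arch, was 6354 bp from the nearest HNF4A centre and 9407 bp from the nearest FOXA1 centre. HOXA3, needed for the thymus and parathyroid, is a long annotated gene that encloses HOXA4, HOXA5 and HOXA6, and 11 FOXA1 peak centres lay in it or within 5000 bp. The strongest of them (chr7:27160898-27161308, score 460, above 98.4% of the FOXA1 list) was overlapped by FOXA1nhaa and FOXA1rraa, by a single shared row with a score of 77. The FOXA1 peak 865 bp upstream of a HOXA3 start (score 241) was overlapped by the same pair of lists.

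HNF4A marked the starts of HOXA4 and HOXA5 with weak peaks. The HOXA4 peak was centred 313 bp upstream with a score of 56. HOXA5, which acts in lung development, had a 47 bp wide HNF4A row over its coding exon with a score of 32, near the bottom of the list. FOXA1 was not within 1000 bp of these starts, but a peak (score 124) covered the HOXA5 untranslated exon 1236 bp downstream, where FOXA1nhaa also had one. HOXA6 had FOXA1 centres 684 bp downstream (score 147) and 528 bp upstream (score 153) of a start, and the former was overlapped by FOXA1dbd with a score of 22. HOXA7 had no centre of any list within 1000 bp of a start.

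From HOXA9 to HOXA13, both factors lay within 1000 bp of a start at HOXA9 and HOXA13, and HNF4A alone at HOXA10 and HOXA11. At HOXA13 the factors were at different starts. HOXA9, which acts in blood progenitors, had a FOXA1 centre 240 bp upstream of a start (chr7:27210250-27210463, score 164), shared with FOXA1nhaa and FOXA1rraa, while the nearest HNF4A centre was 745 bp from it. That HNF4A peak (chr7:27210955-27211307) had the highest HNF4A score of the windows, 297, with the authors' fold enrichment of 10.7, and lay in exons of HOXA10 and HOXA10-AS. HOXA10, a regulator of uterine development, had an HNF4A centre 41 bp upstream of a start (score 67). A further HNF4A centre (score 67) was within 1000 bp of starts of both HOXA9 and HOXA10. At the upstream end of HOXA10, an HNF4A centre lay 369 bp downstream of another start (score 97). In an intron 1630 bp downstream of that start was a FOXA1 peak (score 106) that FOXA1dbd and FOXA1nhaa overlapped. HOXA11, which acts in the forearm and uterus, had an HNF4A centre 718 bp downstream (score 48). Upstream of it, the FOXA1 peak in HOXA11-AS (chr7:27226372-27227042, score 179) was overlapped by FOXA1dbd and FOXA1nhaa, and its FOXA1nhaa row, scored 286 at a fold enrichment of 10.3, was the highest of that list in HOXA and is also a FOXA1rraa row.

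HOXA13 shapes the distal limb and the external genitalia. FOXA1 had peaks centred 68 bp downstream (score 188), at -642 bp (score 121) and at -1479 bp (score 145), where minus is upstream, of a HOXA13 start, each over an annotated untranslated exon. FOXA1dbd overlapped the 2 nearest, with scores of 93 and 37. The 93 was the highest FOXA1dbd score in HOXA. The nearest FOXA1nhaa centre was 8570 bp from a start of the gene, and the FOXA1rraa peaks there are the FOXA1 rows. HNF4A was at the other annotated start of HOXA13, at the upstream end of the gene. It had a centre 346 bp upstream of that start (score 89), in an exon of HOTTIP, the RNA transcribed away from HOXA13. Another lay 1441 bp downstream of the same start, also in an exon of HOTTIP (score 145).

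In HOXB, HOXC and HOXD, every peak within 1000 bp of a HOX start belonged to HNF4A. In HOXB these were HOXB2, a hindbrain gene, with scores of 54 and 40, and HOXB6 with a score of 178. HOXB13, the isolated gene at the far end of HOXB that is known from the prostate, was 102434 bp from the nearest HNF4A centre and 110083 bp from the nearest FOXA1 centre. In HOXC they were HOXC5 (score 258), HOXC9 (117) and HOXC11 (90 and 27), and in HOXD, HOXD8 (64) and HOXD11 (137). HOXC11 lies opposite HOTAIR, an RNA known for its link to Polycomb, and the strongest HNF4A peak of HOXC was in an exon of HOTAIR near an annotated start (chr12:54362206-54362577, score 296). Another HNF4A peak of the HOXD window (score 99) covered the untranslated exon of EVX2, a homeobox gene beside HOXD13. HOXD13 itself, known for digit patterning, was 11719 bp from the nearest HNF4A centre and 58721 bp from the nearest FOXA1 centre.

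The FOXA1 peaks outside HOXA were mostly in flanks. The peak beyond HOXC4 (chr12:54461962-54462400, score 258, 14562 bp from a HOXC4 start) was overlapped by FOXA1dbd and FOXA1nhaa. Its FOXA1nhaa row had a score of 372, above 99.5% of that list and the highest of FOXA1nhaa in the windows, and its FOXA1dbd row, with 105, was the highest of FOXA1dbd. A FOXA1 peak across the downstream end of HOXC11 (chr12:54371202-54371667, score 145) was shared with FOXA1dbd (61), and the FOXA1rraa row there is the FOXA1 row itself. In HOXB the FOXA1 peak had a score of 66 and in HOXD 44, at ranks of 16.2% and 4.71% from the bottom of the list, and the HOXD peak is also a row of FOXA1rraa. Other peaks of the variants overlapped no FOXA1 peak. They were the FOXA1nhaa peaks in HOXB (118), in flanks of HOXA (89) and HOXC (117) and in the flank beyond HOXD13 (97 and 71), and the FOXA1dbd peak of the HOXD window (46).

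Of the 28 FOXA1 peaks in the windows, 9 were overlapped by FOXA1dbd (32.1%, 17.9 to 50.7), against 17.3% of all FOXA1 peaks. FOXA1nhaa overlapped 9 (32.1%, genome 39.7%) and FOXA1rraa 10 (35.7%, 20.7 to 54.2, genome 39.9%), or 6 without the rows copied from FOXA1. FOXA1dbd and FOXA1nhaa both overlapped the peaks in HOXA10, in HOXA11-AS and beyond HOXC4, and the FOXA1rraa row at each is the FOXA1nhaa row itself. Rows of all 3 variants were thus at 3 peaks (10.7%), against 8.21% of all FOXA1 peaks, a share that the shared rows help to set. From the side of the variants, FOXA1 overlapped 9 of 10 FOXA1dbd peaks (90%, genome 96.2%) and 9 of 14 FOXA1nhaa peaks (64.3%, genome 58.4%). It also overlapped 10 of 10 FOXA1rraa peaks (genome 86.8%), but 4 of those are FOXA1 rows, whose overlap was fixed in advance. The FOXA1rraa share over the genome without such rows is not given. No variant overlapped 14 of the 28 FOXA1 peaks (50%, genome 41.5%), and the FOXA1 peak beyond HOXD1 was overlapped by its own copy in FOXA1rraa alone. Ranked by score, 14 FOXA1 window peaks were in the top 50% of their list, as were 2 FOXA1dbd, 7 FOXA1nhaa, 5 FOXA1rraa and 14 HNF4A peaks. The FOXA1dbd peaks of the windows had a median score of 51.5, against 61 for their list. With the top 50% of each list only, the FOXA1dbd share was 14.3% of 14 peaks.

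**Figure D4:**
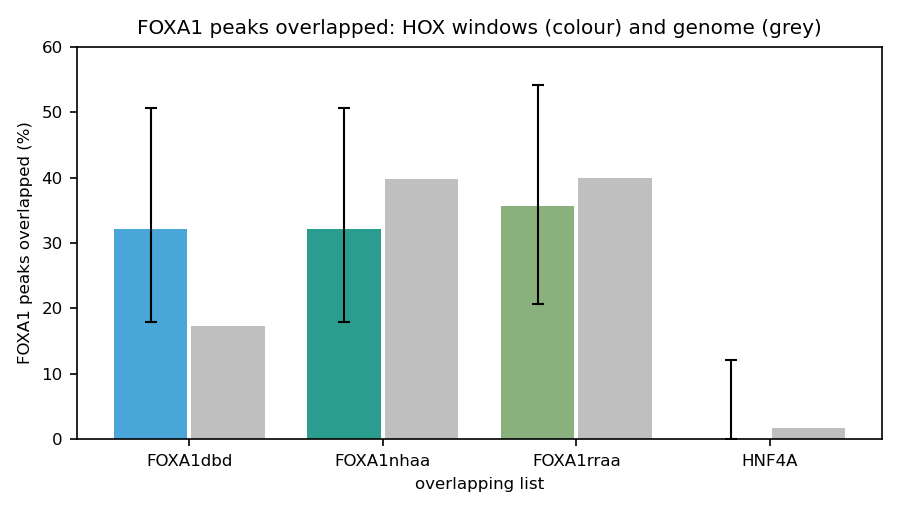
Percentage of FOXA1 peaks overlapped by each other list, in the HOX windows (coloured bars, 28 peaks, with 95% Wilson intervals) and over all FOXA1 peaks (grey bars). The FOXA1dbd bar is 32.1% against 17.3%, the FOXA1nhaa and FOXA1rraa intervals span the grey bars, and HNF4A is at 0% with an interval up to 12.1%.

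The forkhead core was found in 11 of the 28 FOXA1 window peaks when the central 200 bp were searched (39.3%, 23.6 to 57.6), against 18.2% of all FOXA1 peaks and 2.53% of the 200 bp around the start of every protein-coding gene. In HOXA it was in 9 of 18 (50%, 29.0 to 71.0). The promoter share was not matched for base composition. The reversed letters, CATTTGT and CATTTAT, have the same base composition and were chosen after the core had been counted. They were in 3 of the 28 (10.7%) and in 3 of 18 in HOXA (16.7%), against 19.8% of all FOXA1 peaks. Over the whole FOXA1 list the core, at 18.2%, was thus no more frequent than the reversed letters. The share with a core was 5 of 10 for FOXA1dbd (genome 22.1%), 2 of 14 for FOXA1nhaa (genome 13.6%) and 3 of 10 for FOXA1rraa (genome 20%). HNF4A peaks had the core in 0 of 33 (0 to 10.4%, genome 3.25%). The central 100 bp held a core in 5 of the 28 FOXA1 peaks (17.9%, genome 10.1%). The HNF4 core CAAAGTCCA was in 0 window peaks of every list, against 0.208% of all promoters, 0.992% of all HNF4A peaks, 0.261% of FOXA1, 0.267% of FOXA1dbd, 0.193% of FOXA1nhaa and 0.219% of FOXA1rraa peaks, shares too small to be seen in so few.

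FOXA1 centres in the windows, flanks included, were rich in A and T. Their median G+C was 35.3% (25.5% to 52.5%), against 32.5% for all FOXA1 peaks, and 22 of 28 were above that list's median. The 18 in HOXA, all inside the cluster, had a median of 35.8%, against 51.8% for the cluster itself. The HNF4A centres had a median of 63.0% (42.0% to 77.0%), against 52.5% for all HNF4A peaks, and 30 of 33 were above that list's median. The ratio of observed to expected CpG had a median of 0.711 in HNF4A centres of the windows, against 0.242 in the whole list, and 0.165 in FOXA1 centres, against 0.132. In HOXA the highest G+C of a FOXA1 centre was 52.5%, and only 2 of the 20 HNF4A centres, at 42.0% and 50%, were below it.

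**Figure D5:**
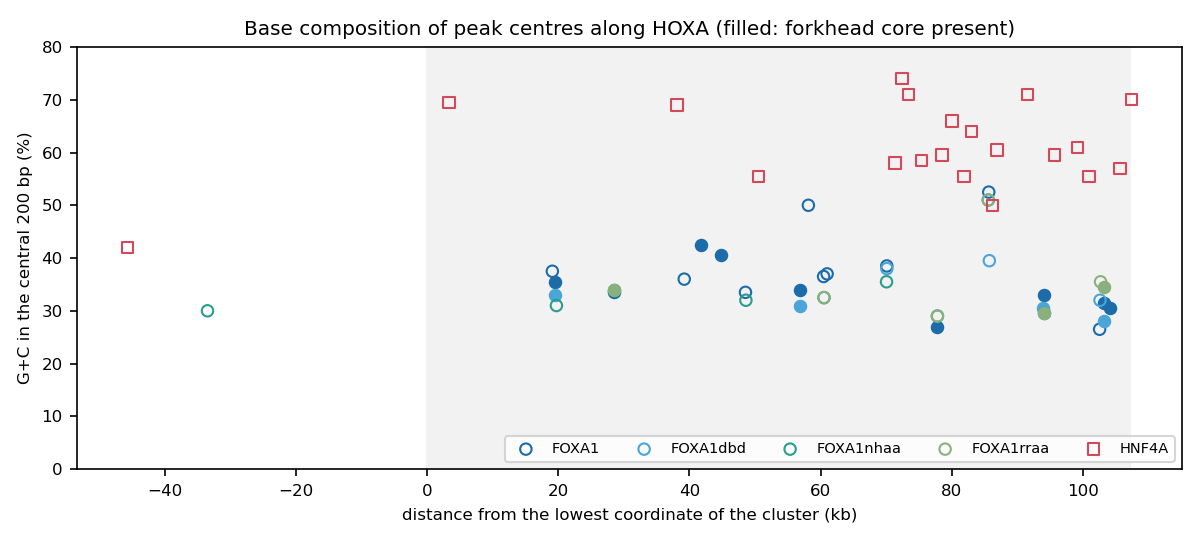
G+C percentage of the central 200 bp of each peak in the HOXA window, against its distance in kb from the lowest coordinate of the cluster, with squares for HNF4A, circles for the FOXA1 constructs and filled symbols where a forkhead core is present. FOXA1 circles lie between 26.5% and 52.5% and HNF4A squares between 42.0% and 74.0%, and symbols of rows that FOXA1rraa shares with other lists cover each other.

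The windows are dense in annotated starts of coding and noncoding genes. Of the HNF4A window peaks, 30 of 33 (90.9%, 76.4 to 96.9) were within 1000 bp of a start of any gene, against 38.4% of the list, and 21 of them at a HOX start. Of the FOXA1 peaks, 9 of 28 were (32.1%, 17.9 to 50.7), against 8.87%. The variants had 4 of 10 (FOXA1dbd, genome 9.27%), 4 of 14 (FOXA1nhaa, genome 8.56%) and 7 of 10 (FOXA1rraa, genome 8.65%). Counted by start, 40 of the 91 distinct starts in the HOXA window had an HNF4A centre (44%), as had 5 of 74 in HOXB (6.76%), 11 of 55 in HOXC (20%) and 5 of 45 in HOXD (11.1%), against 26.3% of all starts. For FOXA1 it was 12 of 91 in HOXA (13.2%), 0 in HOXB and HOXC and 1 in HOXD, against 9.98%. In HOXA the variants had 5 (FOXA1dbd, genome 2.2%), 9 (FOXA1nhaa, genome 6.84%) and 10 (FOXA1rraa, genome 4.58%) of the 91. HOXB, with more starts than HOXC or HOXD, had the lowest HNF4A share of the 4 clusters.

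The proteins that work with HOX factors were taken as lists from general knowledge. The TALE homeodomain proteins bind DNA together with HOX proteins, and 5 of 9 of their genes had a FOXA1 centre within 1000 bp of a start (55.6%, 26.7 to 81.1, genome 24.4%). They included PKNOX1 (score 224), PBX3 (218), MEIS1 and MEIS2. The gene or its 5000 bp surroundings held 60 FOXA1 centres for PBX3, 43 for MEIS1 and 39 for MEIS2, but 5 for PKNOX1, 2 for PKNOX2 and 0 for PBX2, PBX4 and MEIS3. The median over the 9 genes was 5, against 1 for all protein-coding genes. None of these counts per gene was adjusted for gene length. HNF4A was at 4 of the 9 (44.4%, genome 47.3%), among them PBX3 (243), MEIS2 (74) and MEIS1 (65), a share near that of all genes. FOXA1dbd was at 1 (11.1%, genome 7.41%), FOXA1nhaa at 4 (44.4%, 18.9 to 73.3, genome 19.2%) and FOXA1rraa at 4 (44.4%, genome 14.3%).

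The homeobox genes related to HOX genes, GSX1, GSX2, PDX1, CDX1, CDX2, CDX4, EVX1 and EVX2, had 0 of 8 starts with a peak in each of the 5 lists (0 to 32.4%). The shares of all genes were 24.4% for FOXA1, 7.41% for FOXA1dbd, 19.2% for FOXA1nhaa and 14.3% for FOXA1rraa, all inside that interval, and 47.3% for HNF4A, outside it. Of 18 genes for Polycomb and other chromatin regulators of HOX genes, 9 had a FOXA1 centre at a start (50%, 29.0 to 71.0, genome 24.4%), led by EED (434) and SUZ12 (398), core parts of the Polycomb complex that methylates histone H3. They had an HNF4A centre at 8 (44.4%, genome 47.3%), led by KDM6B (880), a histone demethylase that opposes that complex. FOXA1nhaa was at 6 of the 18 (33.3%, 16.3 to 56.3, genome 19.2%), FOXA1rraa at 4 (22.2%, genome 14.3%) and FOXA1dbd at 1 (5.56%, genome 7.41%). For these 18 genes, the 95% Wilson intervals of HNF4A, FOXA1nhaa, FOXA1rraa and FOXA1dbd hold their genome shares. The FOXA1 interval, 29.0 to 71.0, lies above its genome share of 24.4%. The start of any transcript counted. For EED, the FOXA1 peak (chr11:85988454-85988959) and an HNF4A peak (chr11:85955733-85956002) were at different starts. Counts with a single start per gene are not given for these genes or the TALE genes.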

How the data were processed

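The peak lists are in hg19, and the submitters' processing notes name Bowtie2 2.3.4.1, Picard, GATK 4.2.6.0, bedtools 2.27.1, MACS2 2.2.7.1 and deepTools 3.5.0, with no role or order. Whether libraries were pooled before calling is not given in the sources used here. The deposited FOXA1 list holds a score per peak. In the other 4 deposited lists each peak also has a ratio (fold enrichment), its −log10 p-value, its −log10 q-value and a summit offset. These are the authors' values and served here to describe peaks and rank them inside 1 list. The deposited score equals the −log10 q-value times 10 without its decimals, in all but 14 FOXA1nhaa and 10 FOXA1rraa rows. The 38291 rows of the down-sampled FOXA1 list are all rows of the full list and were not used.

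Rows with the same coordinates were counted once. A peak belonged to a window when it shared at least 1 bp with it. Centres are summits, or midpoints for FOXA1 and for rows whose summit falls outside. Starts are those of all transcripts in GENCODE 44 lifted to GRCh37, and the largest peak end of every chromosome lay within the GRCh37 length. Overlap meant at least 1 bp. Shares have 95% Wilson intervals. No test was run, because each construct has 1 list and peaks are not replicates. Every HOX gene with a peak at a start, the highest-scoring peak of each list in each window, and any site of FOXA1 with HNF4A were to be named. Further HOX genes were named for comparison after their values were seen. Central sequences that overlap an untranslated region are not shown, and a few items that the rule selects are not reported here. The members and lists were chosen with earlier results of these data known. Code was tested on simulated data, where 9 of 9 checks gave the planted answer, with Python 3.11.15, pandas 2.3.3 and numpy 2.4.6. Other settings tried were flanks of 0 and 100 kb, the top 50% of each list, merged rows, 2500 bp or a single start per gene, an overlap of at least 50% of the shorter of both peaks, a distance of 200 bp between centres, a central 100 bp, midpoints as centres, and FOXA1rraa without FOXA1 rows.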

Additional observations from a re-analysis of the deposited data

How the results depend on the processing

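No paired analysis was possible because a single peak list stands for both libraries of a protein, which also leaves no replicate to drop. Of 60 values under other settings, 34 stayed near the main value and 26 moved. Near meant within 1.5 times for a count, or within the main Wilson interval for a share. The limit of 1.5 times is not counting error, and settings that change flank, distance or list size move counts by design. Under every overlap setting, 0 overlaps of FOXA1 with HNF4A were found. With 10 to 33 peaks a list, counting error is wide, and how deeply each library was sequenced is unknown.

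Window peaks with a 100 kb flank were 43 for FOXA1, 25 for FOXA1nhaa and 17 for FOXA1rraa, and without a flank 9 for FOXA1nhaa. Keeping the top 50% of each list left 14 peaks of FOXA1, 14 of HNF4A, 2 of FOXA1dbd, 7 of FOXA1nhaa and 5 of FOXA1rraa. Without its rows copied from FOXA1, FOXA1rraa had 6.

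HOX genes with a peak within 2500 bp of a start were 9 for FOXA1 and 6 each for FOXA1dbd, FOXA1nhaa and FOXA1rraa. With a single start per gene they were 2 for FOXA1 and 1 each for FOXA1dbd, FOXA1nhaa and FOXA1rraa. In the top 50% of each list they were 4 for FOXA1 and 5 for HNF4A, and 1 each for FOXA1dbd, FOXA1nhaa and FOXA1rraa.

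The FOXA1dbd share of FOXA1 window peaks was 14.3% in the top 50%. In the central 100 bp the forkhead core was in 17.9% of FOXA1 window peaks, in 40% of those of FOXA1dbd, and in 0% of those of FOXA1nhaa and FOXA1rraa. The shares in the whole lists were 10.1%, 13.4%, 7.15% and 11.1%, and 0 of 14 and 0 of 10 peaks cannot be told from these.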
